A study of Homo sapiens with 6 samples.

Results

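The genes described here are 31 reported targets of the miR-200 microRNA family that act in signalling, from adaptor proteins and phosphatases to actin regulators, transcription factors and trafficking proteins. They were chosen by gene symbol, with earlier results of these data known. Of the 31 listed, 29 had a value among the 22085 genes that the arrays name on rows of their own. LEPR, the leptin receptor gene, was named only on rows shared with its neighbour LEPROT, and the remaining listed gene was not analysed here. The cells were BT549, an established human line from a triple-negative breast cancer, carrying an inducible construct (pTripZ-200c) that switches on miR-200c in doxycycline. The first group was 3 cultures (A, B and C) left untreated, and the other was 3 cultures (A, B and C) given 1 µg/mL doxycycline for 48 h; both groups carried the construct and grew attached in RPMI with 10% serum. Each culture gave 1 array of log2 intensities, and changes are doxycycline minus untreated. The sources used here do not say whether the line is 1 clone or a pool, cells given doxycycline without the construct were not analysed here, and the drug and the microRNA therefore cannot be told apart.

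A microRNA is a short RNA that guides a silencing complex to messenger RNAs, mostly through pairing of its seed, the bases near its 5′ end, with a site in the 3′ untranslated region. Pairing lowers translation and usually also the amount of the messenger RNA, often modestly. The miR-200 family is known in breast epithelium for repressing ZEB1 and ZEB2 and thereby holding cells in an epithelial state, and many proteins of cell movement and growth-factor signalling have been reported as further targets.

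The family's mature sequences are shown because the seed decides which transcripts the induced microRNA could share with its relatives; capitals mark the seed, bases 2 to 8. Sequences are RefSeq's on GRCh38.p14, all on the plus strand.
hsa-miR-200c-3p (chr12:6963742-6963764): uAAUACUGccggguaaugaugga
hsa-miR-200b-3p (chr1:1167160-1167181): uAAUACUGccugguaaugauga
hsa-miR-429 (chr1:1169055-1169076): uAAUACUGucugguaaaaccgu
hsa-miR-141-3p (chr12:6964155-6964176): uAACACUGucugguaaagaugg
hsa-miR-200a-3p (chr1:1167916-1167937): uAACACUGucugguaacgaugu
The first 3, the induced miR-200c among them, carry the seed AAUACUG, and a transcript site that pairs with it reads CAGUAUU. The last 2 carried the seed AACACUG, which differs from it by U4C, counted from 1 at the 5′ end, and pairs with CAGUGUU. A target reported for miR-141 or miR-200a therefore does not by that report alone hold a site for the microRNA induced here. Which of the 29 transcripts hold either site was not tested.
MIR200C hairpin (chr12:6963699-6963766), with the mature 3′ arm in capitals: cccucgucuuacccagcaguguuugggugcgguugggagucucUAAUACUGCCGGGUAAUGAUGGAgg

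Induction was seen on the single row for MIR200C, which read 4.67, 5.15 and 5.07 untreated (A, B and C, as in all values that follow) and 9.50, 9.53 and 9.55 after doxycycline. The untreated values lay within the range of the 23 background rows, whose highest value was 6.36, so the rise was at least 3.17 on the log2 scale when counted from the top of that range. Array medians differed little, from 5.18 to 5.21, and the mesenchymal genes VIM, FN1, CDH2, AXL and CD44 read between 8.54 and 10.53 on every array. Of these FN1 fell by 0.41 (adjusted p = 7.68e-04 in limma) and CDH2 rose by 0.15 (adjusted p = 0.0236). The hormone receptor genes ESR1 and PGR had means within the background range in both groups, and the epithelial cadherin gene CDH1 rose from that range to between 7.05 and 7.19. The epithelial gene EPCAM rose by a measured 0.49 within it (adjusted p = 8.84e-04). Of 8 markers of other cell types 7 had both means in that range. The keratin gene KRT5 rose by a measured 0.46 within it (adjusted p = 2.96e-04) and the smooth muscle actin gene ACTA2 fell by 0.48 (adjusted p = 9.55e-04). These opposite changes offset each other in the sum of the 8 log2 values. That sum ranged from 41.6 to 41.9 untreated and from 41.6 to 41.8 in doxycycline. The part of other cell types in the results was not tested. In bulk RNA fewer cells with a transcript and less of it per cell cannot be told apart.

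The comparison asks which reported targets changed in RNA level once miR-200c was switched on. Of the 29 measured genes 9 fell and 2 rose, while 18 missed the threshold (limma across all 22085 genes, Benjamini-Hochberg adjusted p under 0.05). The fallen genes were MARCKS, CRKL, RND3, KLHL20, RECK, PTPN12, ZFPM2, ETS1 and FSCN1, and the risen ones were ERBB2IP and NCAM1. Over all genes 3.84% were called lower and 6.06% higher, against 31% and 6.90% of these members. Members were chosen with earlier results of these data known, so these shares are descriptive only. Both means lay in the background range in 13567 of all 22085 genes and in 8 of the 29 members, so the shares have unlike bases. Among genes above that range alone 744 were called lower and 1155 higher, with 8 and 2 of the members. The number of genes tested in that fit is not given here, so these counts cannot be read as shares. The median log2 change of the 29 was -0.08, and that of all genes was -0.01. In 17 members all doxycycline arrays lay under all untreated ones, and in 4 above; over all genes the groups did not overlap in 11.8% downward and 14.3% upward. As means over bright and dim rows, changes were small, from -0.49 to 0.30 on the log2 scale. The largest such fall took MARCKS down by 29% in linear intensity. Sizes depended on the summary. With the median over the rows of a gene RND3 fell by 0.77 and RECK by 0.66, both passing. MARCKS at -0.48 and ZFPM2 at a measured -0.12 were smaller than with the mean and did not pass. When genes were summarised by their median row, RND3, CRKL, RECK and ETS1 fell and the 1 riser was AP1S2, while 265 genes of the whole table fell and 431 rose. Junction rows alone left CRKL, RECK, PTPN12 and ETS1 lower and NCAM1 higher, with 270 and 492 genes called over the whole table.

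**Figure D1:**
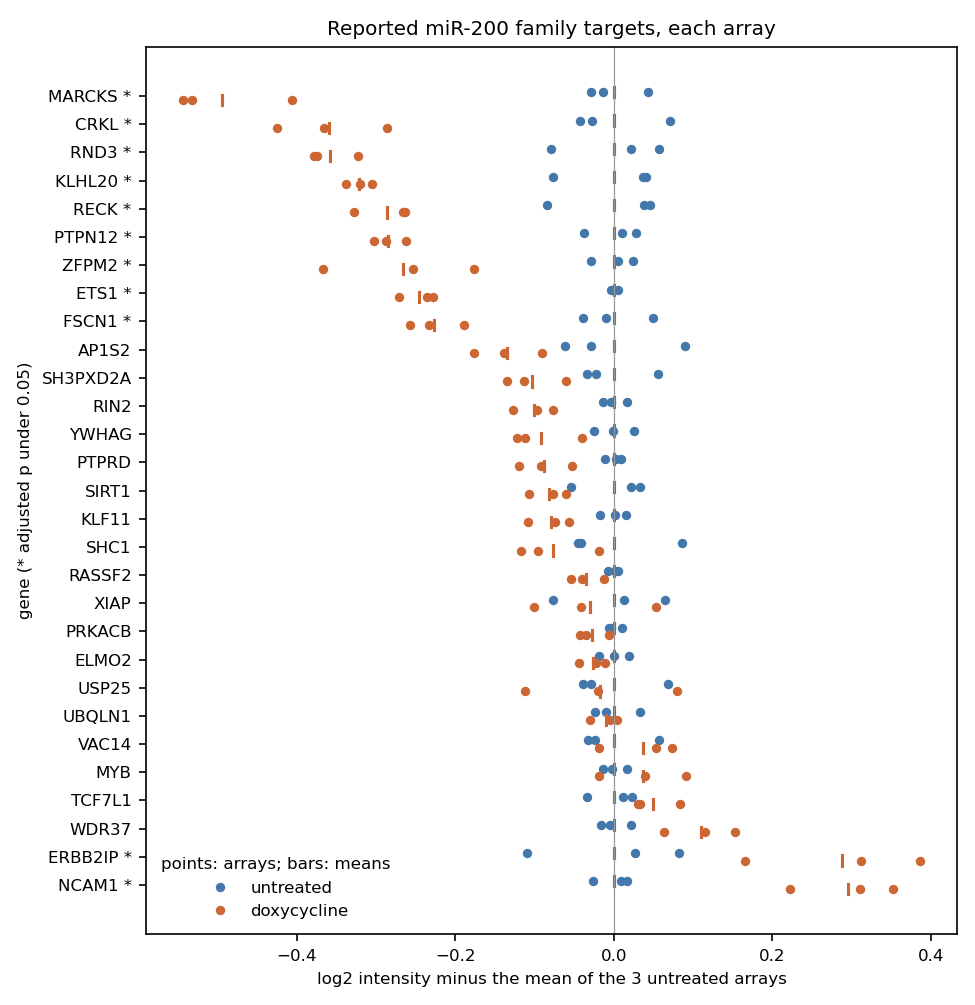
Log2 intensity of each gene on each array, relative to the mean of the 3 untreated arrays (x axis), for the 29 measured genes (y axis, ordered by change). Points are arrays, short bars are group means, and asterisks mark the 11 genes that passed the test; in the 9 fallen genes at the top all doxycycline points lie left of all untreated points.

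Genes of actin remodelling included 3 that fell. MARCKS encodes a membrane-bound protein that binds actin and phosphoinositides and is released by protein kinase C. It read 10.82, 10.87 and 10.80 untreated and 10.43, 10.30 and 10.29 in doxycycline, and the groups did not overlap. The log2 change was -0.49 (SE 0.05, adjusted p = 2.96e-04 in limma), rank 119 among the falls of all genes. RND3 encodes a small GTPase of the RND subfamily that loosens actin stress fibres. It went from 8.18, 8.28 and 8.31 untreated to 7.88, 7.88 and 7.93, again with no overlap, a change of -0.36 (SE 0.04, adjusted p = 0.00128). FSCN1 encodes fascin, which bundles actin filaments in filopodia and invadopodia. Its values were 7.67, 7.73 and 7.64 untreated against 7.50, 7.45 and 7.43 in doxycycline, a change of -0.23 (SE 0.04, adjusted p = 0.00683), or 14.5% less linear intensity. ELMO2, part of the DOCK180 exchange factor complex that activates Rac, had a change of -0.03 with a 95% interval of -0.10 to 0.05, narrow enough to leave out a change as large as that of FSCN1. SH3PXD2A, the invadopodium scaffold TKS5, had lower values in every doxycycline array (6.15 to 6.24 untreated, 6.05 to 6.12 in doxycycline), but at -0.10 did not pass (adjusted p = 0.163), and both means lay within the background range.

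Among adaptors, phosphatases and kinases CRKL and PTPN12 fell and ERBB2IP rose. CRKL encodes an SH2 and SH3 adaptor that links tyrosine kinases and the focal adhesion protein p130Cas to Ras and Rap signalling. It read 9.69, 9.59 and 9.57 untreated and 9.33, 9.25 and 9.19 in doxycycline. All doxycycline arrays lay under all untreated ones, and the change was -0.36 (SE 0.05, adjusted p = 0.00205). PTPN12 encodes PTP-PEST, a tyrosine phosphatase that acts on p130Cas, SHC1 and other adhesion and receptor substrates. Its values were 8.70, 8.66 and 8.72 untreated and 8.39, 8.43 and 8.41 in doxycycline. The spread within each group was 0.034 (SD untreated) and 0.020 (SD in doxycycline, n = 3 each), against a fall of 0.28 (SE 0.03, adjusted p = 0.00129).

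ERBB2IP, now named ERBIN, encodes a scaffold of the LAP family that binds ERBB2 at the basolateral membrane. It read 9.77, 9.63 and 9.83 untreated and 9.91, 10.06 and 10.13 in doxycycline, with doxycycline array A only just above untreated array C. The rise was 0.29 (95% interval 0.14 to 0.44, adjusted p = 0.0294). It was lost when untreated array A (adjusted p = 0.0743), untreated array B (0.0684), doxycycline array B (0.109) or doxycycline array C (0.0968) was left out, with changes from 0.23 to 0.30. With untreated array C or doxycycline array A left out the call held.

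The other members of this group did not pass. SHC1, the adaptor that hands receptor signals to GRB2 and Ras, read from 10.31 to 10.44 untreated and from 10.24 to 10.34 in doxycycline, and the groups overlapped (change -0.08, 95% interval -0.19 to 0.03). The receptor phosphatase gene PTPRD changed by -0.09 (adjusted p = 0.162), both means lying within the background range. YWHAG, a 14-3-3 protein that binds phosphorylated partners, also changed by -0.09 (adjusted p = 0.187). PRKACB, a catalytic subunit of protein kinase A, and RASSF2, a Ras-association tumour suppressor, had changes of -0.03 and -0.04, both with means in the background range.

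RECK and NCAM1, 2 cell-surface proteins, moved in opposite directions. RECK encodes a membrane-anchored inhibitor of matrix metalloproteinases. It read 7.19, 7.07 and 7.20 untreated and 6.89, 6.83 and 6.89 in doxycycline, a change of -0.29 (SE 0.04, adjusted p = 0.00458), with no overlap. NCAM1, a homophilic adhesion molecule of the immunoglobulin superfamily that is usually counted among mesenchymal markers, read 7.97, 8.02 and 8.01 untreated and 8.31, 8.22 and 8.35 in doxycycline. Every doxycycline value was higher, and the rise of 0.30 (SE 0.04, adjusted p = 0.00267) was the largest among the 29 genes.

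Of the transcription and chromatin regulators ETS1 and ZFPM2 fell. ETS1, a transcription factor of invasion and angiogenesis genes, read 8.31, 8.30 and 8.30 untreated and 8.07, 8.03 and 8.07 in doxycycline. Replicates were nearly identical (SD 0.0043 untreated and 0.023 in doxycycline, n = 3 each), and the change was -0.25 (SE 0.03, adjusted p = 0.00185). ZFPM2, the GATA cofactor FOG2, which in mice and flies also restrains PI3-kinase, read 5.45, 5.50 and 5.48 untreated and 5.30, 5.22 and 5.11 in doxycycline, a measured change of -0.27 (adjusted p = 0.0118). Both of its means lay in the background range and 6 of its 43 rows lay above it. Those 6 rows alone gave a change of -0.78, which did not pass (adjusted p = 0.110). SIRT1, a deacetylase, and KLF11, a TGF-beta-responsive repressor, each changed by -0.08 without passing (adjusted p = 0.252 and 0.200). MYB and TCF7L1, a haematopoietic factor and a Wnt pathway repressor, had changes of 0.04 and 0.05 with all means in the background range.

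In ubiquitin signalling and cell survival KLHL20 fell and 3 members did not pass. KLHL20 encodes the substrate adaptor of a cullin-3 ubiquitin ligase. It read 7.75, 7.63 and 7.74 untreated and 7.40, 7.37 and 7.39 in doxycycline, a change of -0.32 (SE 0.04, adjusted p = 0.00169) with no overlap. XIAP, the caspase inhibitor, had overlapping groups (6.95 to 7.09 untreated and 6.92 to 7.08 in doxycycline) and a 95% interval from -0.15 to 0.09. The deubiquitinase gene USP25 changed by -0.02 (95% interval -0.14 to 0.11). The proteasome shuttle gene UBQLN1 changed by -0.01 (-0.09 to 0.07). For XIAP, USP25 and UBQLN1 these intervals leave out a fall as large as that of KLHL20.

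No trafficking gene passed at the gene level. RIN2, an exchange factor for the endosomal GTPase Rab5, was lower on every doxycycline array (6.24 to 6.27 untreated, 6.12 to 6.17 in doxycycline) with a change of -0.10 and an adjusted p of 0.103, both means within the background range. VAC14, a scaffold of the kinase complex that makes endosomal PI(3,5)P2, changed by 0.04 with overlapping groups. WDR37, a WD-repeat protein, was higher on every doxycycline array (6.31 to 6.35 against 6.39 to 6.48) at a measured 0.11, with an adjusted p of 0.106; untreated, its mean was inside the background range, and in doxycycline 0.078 above the top of it. With exon-region rows alone WDR37 passed (change 0.13, adjusted p = 0.0326). AP1S2, a small subunit of the AP-1 clathrin adaptor that sorts cargo at the trans-Golgi network, read 7.00, 6.97 and 7.12 untreated and 6.94, 6.89 and 6.85 in doxycycline, a change of -0.14 (adjusted p = 0.128).

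Each gene value is a mean over rows that probe exon regions or exon junctions, and in some genes the rows moved apart. The 29 genes had 1418 rows, 783 for exon regions and 635 for junctions, of which 798 lay above the background range. When every one of the 924687 rows of the arrays was tested on its own (limma, adjusted over all rows), 32 rows of members fell and 13 rose. Of all rows 0.277% were called lower and 0.451% higher, against 2.26% and 0.917% of the members' rows. These shares compare rows of unlike brightness: 35.5% of all rows lay above the background range, against 56.3% of the members' rows. The 45 called rows came from 9 genes: RND3, AP1S2, RECK, PTPN12, KLHL20, MARCKS, ZFPM2, ERBB2IP and NCAM1. CRKL, ETS1 and FSCN1 had no called row although their means passed. Leaving out 1 array lowered the row counts throughout, to 4 lower and 2 higher without untreated A, 11 and 6 without untreated B, 5 and 4 without untreated C, 12 and 7 without doxycycline A, 4 and 2 without doxycycline B, and 6 and 2 without doxycycline C.

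**Figure D2:**
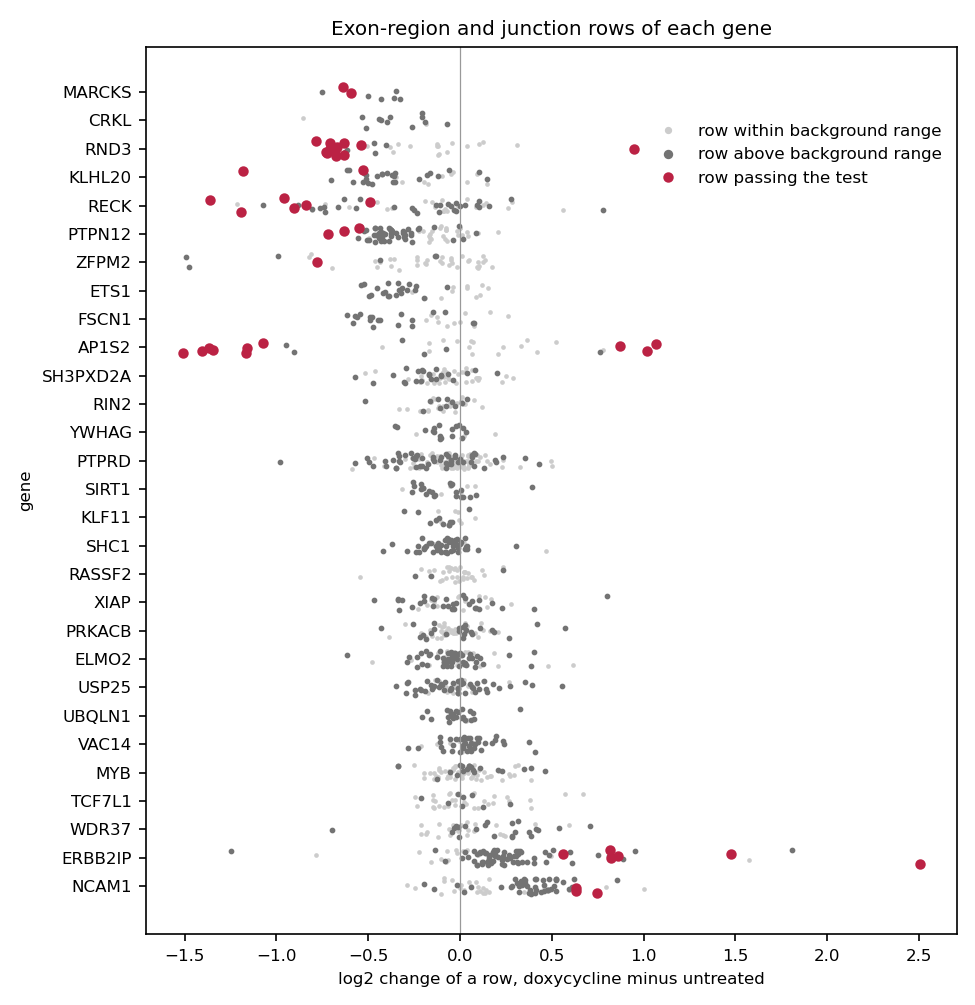
Log2 change of every exon-region and junction row (points, x axis) of the 29 measured genes (y axis, ordered by gene-level change; vertical scatter only separates points). Pale points lie within the background range, dark points above it, and red points are the 45 rows that passed; AP1S2 holds red points on both sides of 0.

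AP1S2 had the strongest split. Of its 33 rows 7 fell and 3 rose. The called row with the smallest p, an exon region, went from 10.14, 10.21 and 10.23 untreated to 8.76, 8.60 and 8.69 in doxycycline, a change of -1.51 (adjusted p = 0.00149). A junction row went from 10.11, 10.07 and 10.11 to 8.82, 8.74 and 8.63, a change of -1.36 (adjusted p = 0.00203). A second exon region went from 10.53, 10.65 and 10.71 to 9.53, 9.42 and 9.46, a change of -1.16 (adjusted p = 0.00380). In each of these rows the groups did not overlap.

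The risen AP1S2 rows, described after their values were seen, were 3 exon regions that follow each other in the order of row names. They rose by 0.87 to 1.07, from untreated means of 6.85 to 8.11 (adjusted p from 0.0201 to 0.0380). The clearest of them went from 8.13, 7.92 and 8.28 to 9.01, 9.24 and 9.29. The rows that fell stood at positions 1 to 3 and at 15 and 17 of the 21 exon-region rows in name order, and those that rose at positions 4 to 6. The sources used here do not say whether name order follows the transcript. The mean over rows hid this split. The median AP1S2 row intensity, taken on each array, rose by 0.43 (adjusted p = 0.00950). By contrast, the rows above the background range gave a fall of 0.48 (adjusted p = 0.0157). The median of the row changes was -0.016, with 17 rows lower in mean and 16 higher.

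RND3 moved more evenly, with 9 exon-region and 2 junction rows lower, by 0.54 to 0.78. The row of smallest p went from 10.19, 10.18 and 10.13 untreated to 9.26, 9.42 and 9.46 (adjusted p = 0.0142). Of its 19 rows above the background range 18 had a lower mean, and these rows alone gave a gene-level fall of 0.55 (adjusted p = 0.00268). Its median row intensity on each array fell by 0.77 (adjusted p = 0.00234), more than the mean, while the median of its row changes was -0.46. The exception, picked out after its values were seen, was 1 junction row that rose by 0.95, from 6.51, 6.30 and 6.59 to 7.30, 7.31 and 7.63 (adjusted p = 0.0318).

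RECK changed along its rows. All 6 called rows were exon regions at positions 20 to 29 of 30 in name order, and fell by a measured 0.49 to 1.36. The row at -1.36 had its doxycycline mean within the background range, which leaves a fall of at least 0.90, and for the row at -0.84 the same bound is 0.010. The row at -0.49 lay within that range in both groups. The one of smallest p went from 8.03, 7.89 and 7.74 to 6.75, 6.59 and 6.75 (adjusted p = 0.00692). Among exon-region rows above the background range, the 10 in the first 15 positions had a median change of 0.01, with 5 lower and 5 higher. Their changes ran from -0.66 to 0.78, and none of these 10 rows was called. The 8 in the last 15 positions were all lower, with a median of -0.89; this split was made after the rows had been seen, and the difference between the parts was not tested.

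In PTPN12 and NCAM1 few rows passed on their own, 3 of 81 and 3 of 79, and most bright rows had means on 1 side. Of all rows tested on the arrays, bright or dim, 52.3% had a lower mean. In PTPN12 52 of the 54 rows above the background range had a lower mean, and 3 exon regions were called, the clearest going from 11.11, 11.26 and 11.17 to 10.51, 10.43 and 10.44 (adjusted p = 0.0149). In NCAM1 47 of 50 such rows had a higher mean, and in 44 of all 79 rows the groups did not overlap upward; over all rows this share was 7.8% upward and 7.47% downward. Its called exon region went from 6.47, 6.44 and 6.39 to 7.10, 7.15 and 7.27 (adjusted p = 0.0145). In ETS1 all 21 rows above the background range had a lower mean, and so did all 11 of CRKL and all 8 of MARCKS.

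ERBB2IP combined a shallow rise of most rows with a few large ones. Of 69 rows above the background range 66 had a higher mean, and the median of the row changes over all 87 rows was 0.19. An exon region went from 4.73, 4.37 and 4.91, within the background range, to 7.21, 7.14 and 7.18. That is at least 0.81 on the log2 scale against the top of the range (measured change 2.51, adjusted p = 0.00188). A junction row went from 5.34, 4.91 and 5.04 to 6.80, 6.32 and 6.59, at least 0.21 against the same top (adjusted p = 0.0160). A bright junction row went from 11.63, 11.67 and 11.50 to 12.37, 12.43 and 12.47, a rise of 0.82 (adjusted p = 0.0109). With rows above the background range alone the gene-level rise was 0.28 and did not pass (adjusted p = 0.149).

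**Figure D3:**
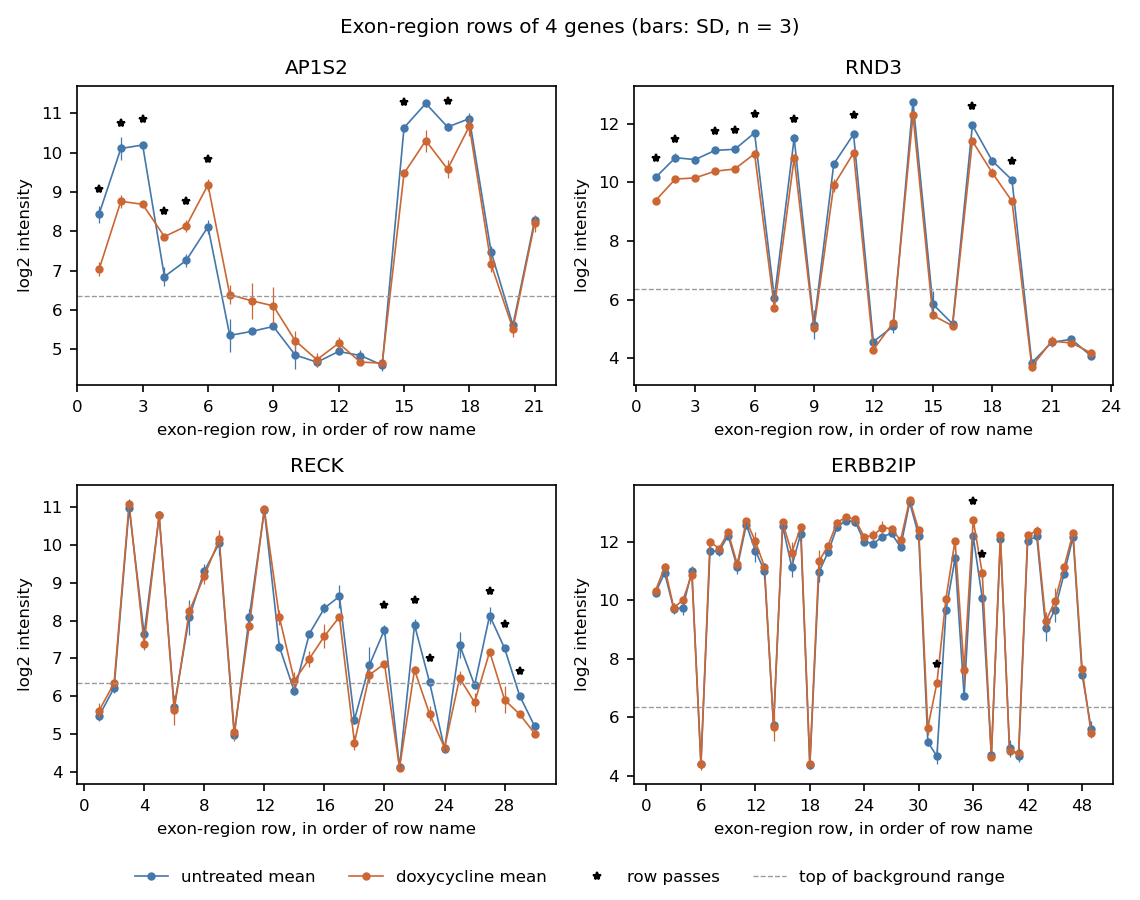
Mean log2 intensity (y axis) of the exon-region rows of AP1S2, RND3, RECK and ERBB2IP in order of row name (x axis), with SD over 3 arrays per group. Stars mark rows that passed and the dashed line is the top of the background range, 6.36. In AP1S2 the lines cross between positions 3 and 4. In RECK rows above the background range part both ways in the first 15 positions. In the last 15 all such rows are lower in doxycycline.

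Exon-region and junction rows are separate probes of the same RNA, and they gave the same direction for all 11 called genes. Those genes were called on the mean over these same rows, so the shared direction is no independent check. Among the 18 genes that did not pass, direction differed for ELMO2 (-0.063 on exon-region rows, 0.023 on junction rows) and UBQLN1 (-0.027 and 0.012). CRKL fell by 0.29 on exon-region rows (adjusted p = 0.00695) and by 0.52 on junction rows (adjusted p = 0.0225). RECK fell by 0.30 and 0.27, PTPN12 by 0.29 and 0.28, and ETS1 by 0.23 and 0.27, and each passed on both kinds. For NCAM1 the rises were 0.31 and 0.29, and it too passed on both. MARCKS, RND3, KLHL20, ZFPM2, FSCN1 and ERBB2IP passed on exon-region rows and not on junction rows, with junction adjusted p from 0.0912 to 0.198. MARCKS had only 2 junction rows, and its junction change of -0.56 was no smaller than that of its exon regions, -0.47.

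**Figure D4:**
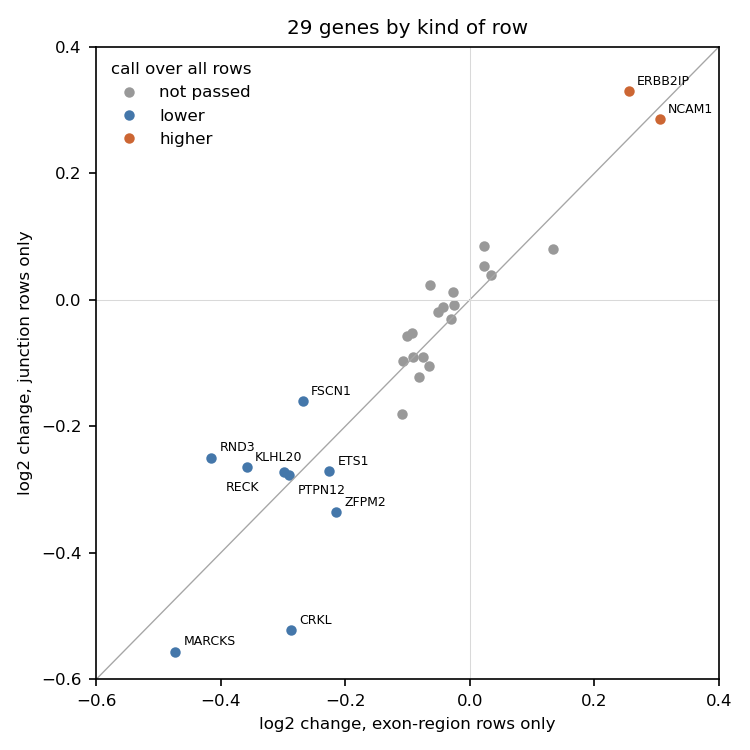
Log2 change from junction rows alone (y axis) against that from exon-region rows alone (x axis) for the 29 measured genes, with the line of equal change. The 9 fallen genes lie in the lower left and the 2 risen ones in the upper right; CRKL stands below the line with -0.29 and -0.52.

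Close relatives of the members, also chosen with earlier results of these data known, were set beside them to show what gene families did. Of 60 measured relatives 2 fell and 7 rose, or 3.33% and 11.7%, beside 3.84% and 6.06% of all genes. The median change of the relatives was -0.00098. Both means lay in the background range in 26 of the 60, in 8 of the 29 members and in 13567 of all 22085 genes. Shares of relatives and members therefore have unlike bases. CRK, the adaptor most like CRKL, changed by -0.02 (95% interval -0.14 to 0.09), and ETS2 by -0.05 (-0.14 to 0.04) beside the fall of ETS1. CRK and ETS2 were picked from the 51 relatives that did not pass. RND2, of the same subfamily as RND3, rose from a mean in the background range to at least 0.24 beyond its top (adjusted p = 0.00191), while RND3 fell. MARCKSL1, the only other MARCKS family gene, fell by 0.21 (adjusted p = 0.0438). Differences between a member and its relative were not tested.

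Further relatives changed, among them relatives of members that did not pass. BIRC3, an inhibitor of apoptosis like XIAP and a known NF-kappaB target, fell by 0.52, from 7.54, 7.67 and 7.67 to 7.05, 7.12 and 7.17 (adjusted p = 3.69e-04). SIRT5, a mitochondrial sirtuin, rose by 0.26 (adjusted p = 0.00193) and MYBL2, a cell-cycle transcription factor, by 0.21 (adjusted p = 0.0445). UCHL3, a ubiquitin hydrolase and a further relative on the list, rose by 0.23 (adjusted p = 0.0349). AP1S3, another AP-1 small subunit, rose by a measured 0.29 (adjusted p = 0.00330), all within the background range. The LAP family genes LRRC1 and LRRC7 rose as ERBB2IP did, LRRC1 by 0.66 (7.58, 7.46 and 7.66 to 8.15, 8.20 and 8.33, adjusted p = 3.37e-04) and LRRC7 by a measured 0.16 within the background range (adjusted p = 0.0306). Leaving out 1 array gave 1 relative lower in 5 fits and 2 without untreated C. It gave 4 higher without untreated A, untreated C, doxycycline B or doxycycline C, 6 without untreated B and 5 without doxycycline A.

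**Figure D5:**
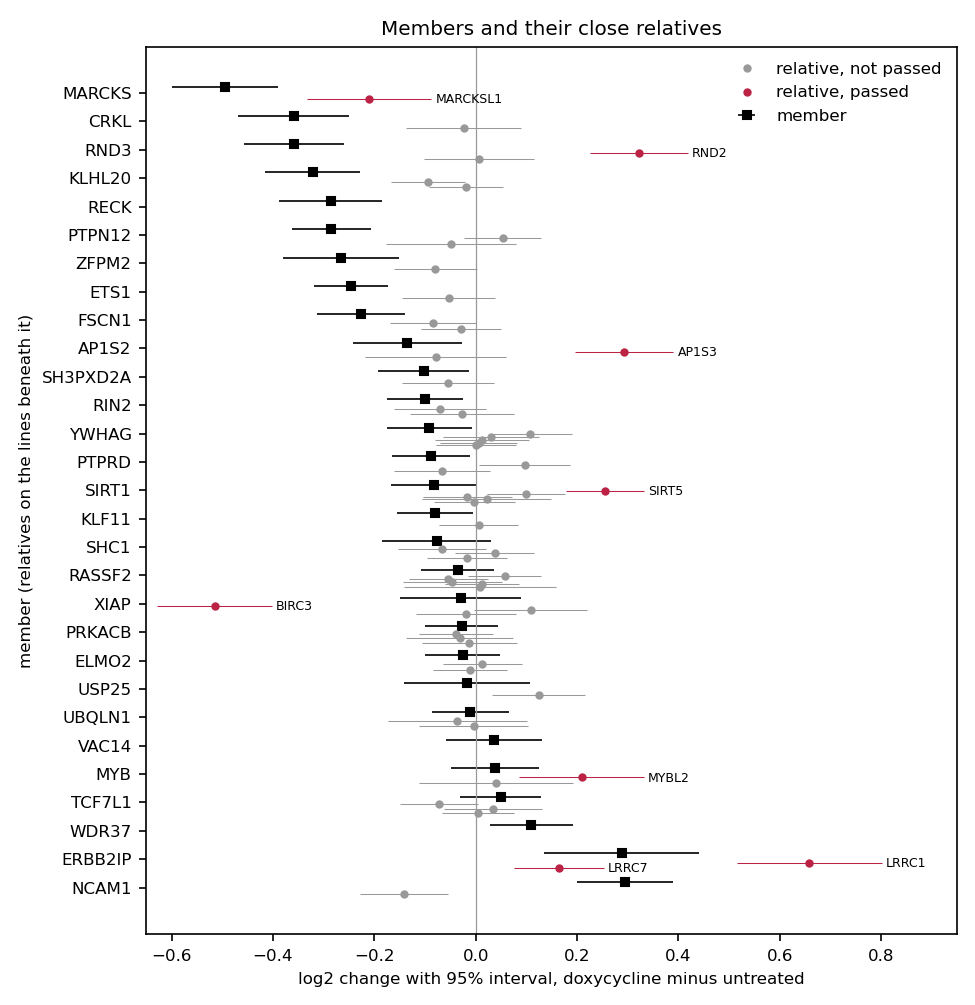
Log2 change with its 95% interval (x axis) for each measured member (squares) and its close relatives (circles beneath it; red where the test was passed). CRKL, PTPN12 and ETS1 lie left of 0, and LRRC1 lies right of ERBB2IP. The intervals of CRK, PTPN18, PTPN22 and ETS2, picked from the relatives that did not pass, include 0. PTPN18 and PTPN22 had both means within the background range, so their intervals say little about a fall.

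In a Ras-MAPK relay list 5 of 30 measured genes fell and 1 rose, or 16.7% and 3.33%, beside 3.84% and 6.06% of all genes. Like the next list, it was chosen with earlier results of these data known. Both means lay in the background range in 4 of the 30 and in 13567 of all 22085 genes. The kinase gene RPS6KA1, which acts downstream of ERK, rose by 0.71 (6.83, 6.82 and 6.83 to 7.53, 7.52 and 7.55, adjusted p = 7.08e-06). DUSP6, an ERK phosphatase that is itself induced by ERK, fell by 0.54 (adjusted p = 0.00114). KSR1, a scaffold of the kinase cascade, fell by a measured 0.35 within the background range (adjusted p = 3.03e-04). RAPGEF1, the exchange factor that binds the CRK adaptors, fell by 0.22 (adjusted p = 0.00793). Without doxycycline B 3 genes of this list were lower, and with the median row or junction rows alone 1 was.

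In the protein kinase A and cAMP list 5 of 18 measured genes rose and 1 fell, or 27.8% and 5.56%, beside 6.06% and 3.84% of all genes. Both means lay in the background range in 5 of the 18 and in 13567 of all 22085 genes. The phosphodiesterase gene PDE4B, whose product breaks down cAMP, fell by 0.51 (7.05, 7.04 and 7.05 to 6.49, 6.54 and 6.57, adjusted p = 6.37e-05). PRKAR1B, a regulatory subunit, rose by 0.38 (adjusted p = 7.15e-04), and the anchoring protein gene AKAP12 and the phosphodiesterase gene PDE4D rose by a measured 0.21 and 0.18 within the background range. Without untreated B or doxycycline C 3 genes of the list were higher, and without untreated C or doxycycline B 2. With the median row or junction rows alone 1 was higher. The catalytic subunit PRKACB itself did not pass.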

How the data were processed

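The deposited table holds 925032 rows of log2 intensities on 6 arrays, a scale taken from the range of the values. Partek is named per the submitters' processing notes, with no role or version; the sources used here give no genome build and no account of how background was handled or arrays were normalized, and the label protocol names a FlashTag kit. After 345 control rows were set aside, 924687 rows were tested. Gene values are the mean over rows whose platform symbol names 1 gene (672085 rows, 22085 genes). Fits used limma 3.58.1 in R 4.3.3 (lmFit, eBayes, group as the single term, two-sided) with the data.table package (version 1.17.8); adjusted p-values are Benjamini-Hochberg values over all genes, or over all rows, with a threshold of 0.05. Code was tested on simulated data. Figures used matplotlib 3.10.9 in Python 3.11.15. Rows are given without coordinates because no build is named for them. Precision is limited by the number of arrays; the design text calls triplicate platings of 1 line biological replicates, so p-values measure the spread between those platings, which may be technical. The replicate letters were checked for pairing: deviations of same-lettered arrays correlated at -0.17, -0.03 and 0.22. Arrays of different letters were not compared, so whether the letters pair the samples was not settled. The main fits treated the arrays as unpaired. Named were all members, MIR200C, every passing relative that the rule took and up to 4 genes of smallest p per pathway list. For rows, up to 3 of smallest p per gene were named. The relatives CRK, ETS2, PTPN18 and PTPN22 did not pass and were named outside this rule. Members and lists were chosen with earlier results of these data known. Alternatives: median or brighter rows, row kinds, quantile normalization, an intensity trend, brighter genes, the replicate block and leaving out each array. A further pathway list is not reported here.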

Additional observations from a re-analysis of the deposited data

Results flagged for a closer look

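The rows that name LEPR together with LEPROT, which overlaps it, gave no gene value above and entered only the test over all rows. Of these 75 rows 3 were called lower and 1 higher, or 5.33% in all, beside 0.277% lower and 0.451% higher over all rows. Above the background range lay 48 of the 75 rows, and 35.5% of all rows. LEPR encodes the leptin receptor and LEPROT a small endosomal protein, and rows with both names cannot be given to either gene. An exon region went from 8.53, 8.49 and 8.48 untreated to 7.83, 8.02 and 7.91 in doxycycline (change -0.58, limma adjusted p = 0.0341). Others changed by -0.55 (adjusted p = 0.0345) and -0.85 (adjusted p = 0.0423). The fourth rose by 0.64, from 9.56, 9.34 and 9.33 to 10.02, 10.13 and 10.00 (adjusted p = 0.0401). The mean over the 75 rows was 7.44 ± 0.066 untreated and 7.33 ± 0.017 in doxycycline (SD, n = 3), so that rows of this shared locus moved both ways around a small mean change of -0.11, which was not tested.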

How the results depend on the processing

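CRKL, RECK and ETS1 passed as lower under all 15 alternatives run, and the count of fallen members was 9 whichever array was left out. The median over rows gave 4 members lower and 1 higher, against 265 and 431 genes over the whole table. It gave 0 relatives lower and 1 higher, 1 Ras-MAPK gene lower and 0 protein kinase A and cAMP genes lower and 1 higher. Junction rows alone gave 4 members lower and 1 higher, 270 and 492 genes, 1 and 1 relatives, 1 Ras-MAPK gene lower and 1 cAMP gene higher. Rows above the background range alone, an alternative chosen after seeing the data, gave 1 member higher, 505 and 785 genes, 1 and 4 relatives, 3 Ras-MAPK genes lower and 3 cAMP genes higher. The brighter rows gave 1 member higher, 1 relative lower and 3 cAMP genes higher. An intensity trend gave 20 member rows higher. The replicate block gave 9 members lower and 2 higher, 3 member rows lower and 2 higher, 1 relative lower, 2 Ras-MAPK genes higher and 2 cAMP genes higher. Leaving out 1 array gave 494 to 797 genes lower and 804 to 1098 higher, 1 to 2 members higher, 1 to 2 relatives lower and 4 to 6 higher. It also gave 3 to 5 Ras-MAPK genes lower, 2 to 4 cAMP genes higher, 4 to 12 member rows lower and 2 to 7 higher. The causes were not tested.

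Single members changed sign as follows. AP1S2 rose by 0.43 with the median row intensity on each array (adjusted p = 0.00950). The others had not passed: with the median ELMO2 was at 0.0060, VAC14 at -0.038, TCF7L1 at -0.0080 and PRKACB at 0.015, and PRKACB was at 0.0068 with the brighter rows and 0.0061 with rows above the background range. With junction rows ELMO2 was at 0.023 and UBQLN1 at 0.012. Without untreated C XIAP was at 0.0022, USP25 at 0.017 and UBQLN1 at 0.0062, and without doxycycline A XIAP was at 0.0057 and USP25 at 0.030. Over the arrays left out XIAP ranged from -0.071 to 0.0057, USP25 from -0.066 to 0.030 and UBQLN1 from -0.022 to 0.0062. Calls were lost with the median for KLHL20 (change -0.40, adjusted p = 0.0706), MARCKS (-0.48, 0.0857), FSCN1 (-0.23, 0.103), PTPN12 (-0.37, 0.394), ZFPM2 (-0.12, 0.569), NCAM1 (0.42, 0.0628) and ERBB2IP (0.25, 0.306). Of these changes those of KLHL20, FSCN1, PTPN12 and NCAM1 were larger than with the mean, and those of MARCKS, ZFPM2 and ERBB2IP smaller. Only 3 arrays per group limit precision, and 8 members had both means within the background range.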
